A study of Bos taurus with 47 samples.

Results

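Of the 27607 gene identifiers counted in bovine Longissimus muscle, 100 were chosen because their mean level was lower at birth than both in day 84 fetuses and at slaughter. The level was CPM, a gene's count per 1000000 counts of its library. A gene could enter if its fetal and slaughter means were at least 5 CPM, lay within 4-fold of each other and were each at least 2 times its birth mean. The 221 genes that met this were ordered by the log2 ratio of the smaller outer mean to the birth mean, with 0.5 CPM added to both, and the top 100 were taken. The fetal and slaughter limits alone were met by 5758 identifiers. The genes were thus chosen by the stage means of these same libraries, so their low level at birth is a description and was not tested.

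The series asks whether the weight gain of pregnant heifers early in gestation leaves a trace in the muscle of their daughters and of the generation after. All F0 dams were crossbred Angus heifers. Over the first 84 days of gestation they gained either 0.28 kg a day, called low gain or LG, or 0.79 kg a day, called moderate gain or MG, and afterwards they were managed together, as were their F1 daughters. Fetuses were F2, taken at day 84, and gave 8 LG and 8 MG libraries of Longissimus dorsi. Newborn F1 heifers, sampled after calving and before suckling, gave 8 LG and 8 MG libraries of Longissimus thoracis. F1 heifers at slaughter gave 8 LG and 7 MG libraries of Longissimus thoracis by the sample labels, which were followed, whereas the protocol text counts 7 LG and 8 MG. Fetuses therefore differ from newborns and slaughter heifers in generation and in the muscle as labelled as well as in age. Newborns and slaughter heifers share generation and labelled muscle but differ in age. The stages were also deposited as 3 separate tables. Within each comparison of stages, the differences named here cannot be told apart. No untreated group was analysed here.

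Skeletal muscle is built in waves. Primary and then secondary fibres form before birth, and growth after birth comes mainly from the enlargement of existing fibres with the help of satellite cells, the resident stem cells of muscle. Around birth the tissue also meets a new supply of oxygen and fuel, stress hormones and weight bearing, and many contractile and metabolic genes change isoform or level. In whole muscle, a lower level of a transcript can mean fewer cells of the type that makes it or less of its RNA per cell, and the 2 cannot be told apart in these libraries. The files give Ensembl identifiers without gene names, and 0 of them could be matched to a symbol with the reference table used here. For that reason no function is given for any gene below, and muscle and other cell type markers could not be read.

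Total counts per library ran from 15526773 to 21916940 in fetuses, from 13308433 to 22671822 in newborns and from 14972276 to 32547565 in heifers at slaughter. The 100 genes together took 0.609% to 0.757% of all counts in fetal libraries, with a median of 0.722%. In birth libraries they took 0.0995% to 0.149%, with a median of 0.112%, and in slaughter libraries 0.388% to 0.560%, with a median of 0.510%. The 3 ranges did not touch. Stages also differed in how concentrated the counts were: 50% of them came from a median of 443.5 genes in fetal, 77 in birth and 58 in slaughter libraries. A few libraries stood apart. They are set beside the comparison genes, which are all genes with fetal and slaughter means of at least 5 CPM. In fetus LG 41 the 100 genes had a median log2 difference from the other fetal libraries of -0.50, beside -0.37 over the comparison genes. In birth MG 17 their median difference from the other birth libraries was 0.27, beside 0.36 over the comparison genes. In that library 169 genes made up 50% of the counts, against 61 to 109 in the other birth libraries. The part of these library differences in the results was not tested, and values without these libraries are given where they differ.

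The depth of the trough varied widely among the 100 genes. Their fetal means lay between 5.04 and 645 CPM, with a median of 34.3 CPM. Their birth means lay between 0.224 and 121 CPM, with a median of 5.51 CPM, and their slaughter means between 5.002 and 483 CPM, with a median of 22.3 CPM. By CPM the fetal mean was a median of 5.42 times the birth mean, and the slaughter mean a median of 3.74 times the birth mean. This order of the 2 sides depends on how libraries are scaled. In edgeR with TMM scaling, the median log2 fold change of the 100 genes was -1.54 for birth against fetus. For slaughter against birth it was 2.01, so there the slaughter side was the larger. For 31 genes the smaller outer mean was at least 4 times the birth mean, for 12 at least 8 times and for 4 at least 16 times. Only 5 genes had a birth mean under 1 CPM, so for most of them the transcript was still counted in newborn muscle. A library with a count of 0 occurred for 1 gene in fetuses, 3 genes at birth and 2 genes at slaughter.

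**Figure D1:**
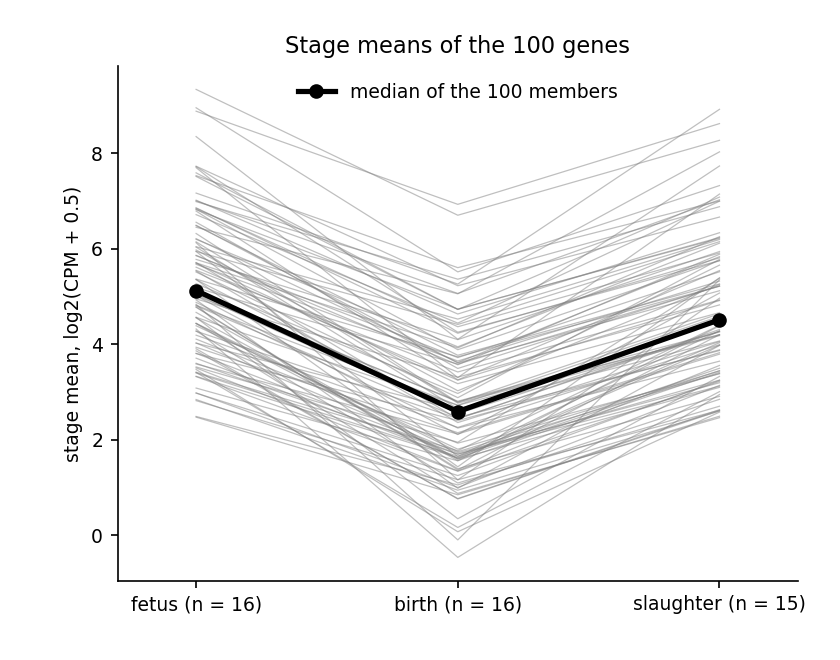
Stage means of the 100 genes as log2(CPM + 0.5), with 1 grey line per gene and the median of the members in black, for 16 fetal, 16 birth and 15 slaughter libraries. Every line dips at birth because the rule required it, and the medians are 34.3 CPM in fetuses, 5.51 CPM at birth and 22.3 CPM at slaughter.

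The gene with the deepest trough was ENSBTAG00000010981. It had 19.7 CPM in the lowest, 28.03 in the median and 46.7 in the highest fetal library, 0.0582, 0.428 and 1.203 CPM at birth, and 16.0, 34.6 and 107 CPM at slaughter. Every birth library lay below every fetal and slaughter library, and slaughter libraries were the most spread. ENSBTAG00000010793 came next, with a lowest, median and highest value of 12.6, 33.0 and 102 CPM in fetuses, 1.54, 2.02 and 3.35 CPM at birth and 14.8, 37.6 and 71.1 CPM at slaughter. Its birth libraries also lay below all others, within a narrow band. The members just inside the limit of 100 had much shallower troughs, with scores of 1.40, 1.397 and 1.393. The identifiers just outside had scores of 1.388, 1.388 and 1.386, so the limit cuts through a continuous range. The last member taken had a mean of 86.7 CPM in fetuses, 32.7 CPM in newborns and 260 CPM at slaughter, and the first one left out had 54.4, 5.29 and 14.6 CPM at these stages.

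Library by library, birth values lay below every fetal and every slaughter library for 59 of the 100 genes. The background for this was 1.34% of the 14059 identifiers with a stage mean of at least 1 CPM, and 2.03% of the 5758 that met the fetal and slaughter limits. Birth values lay below every fetal library for 70 of the 100, where the background was 32.6%, and below every slaughter library for 71, where it was 4.36%. Since the rule used these levels, nothing is read from the contrast with the background. For the remaining 41 genes at least 1 birth library overlapped with a fetal or slaughter library. In the same way edgeR's quasi-likelihood test with Benjamini-Hochberg adjustment called 98 of the 100 lower at birth than in fetuses, beside a background of 81.9% of 14820 genes tested. It called all 100 higher at slaughter than at birth, beside 70.2% of 13369 genes. These counts follow from how the genes were chosen. The 2 genes not called between birth and fetus were ENSBTAG00000016063, described below, and ENSBTAG00000015467, with a log2 fold change of -0.74 (SE 0.35, edgeR, Benjamini-Hochberg adjusted p = 0.0517).

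The rule was also applied to the libraries of 1 treatment and the genes so found were read in the libraries of the other. This is a description, since the rule itself was set with the stage means of all these libraries known, and LG and MG libraries share each stage's generation, muscle and table. Of the 100 genes chosen in MG libraries alone, 100 had a lower mean at birth than at both other stages in LG libraries, and for 99 the birth mean was at least 2-fold below both. Of the 100 chosen in LG libraries alone, 99 were lower at birth than at both other stages in MG libraries, and 85 were so by 2-fold or more. Among all identifiers that met the fetal and slaughter limits in the libraries read, 4.43% of 5627 had such a 2-fold trough in LG and 3.69% of 5827 in MG. The median score of the chosen genes in the libraries not used was 1.70 in LG and 1.60 in MG. The lowest score, of a gene chosen in LG, was -0.74 in MG. This reading was added after the data had been seen.

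Troughs of this kind were the more common turning shape on the CPM scale. Among the 5758 identifiers, birth means were at least 2-fold below both others for 221 and at least 2-fold above both for 113. At 4-fold the counts were 31 below and 16 above, and at 8-fold 12 below and 4 above. The imbalance was smaller with other scalings of the libraries: with edgeR's TMM factors 230 of 6087 lay below and 163 above, and with DESeq2-type size factors (RLE) 243 of 6093 lay below and 149 above. All 100 genes kept a birth mean below both others under either scaling, and 82 with TMM and 84 with RLE kept it by 2-fold or more.

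**Figure D2:**
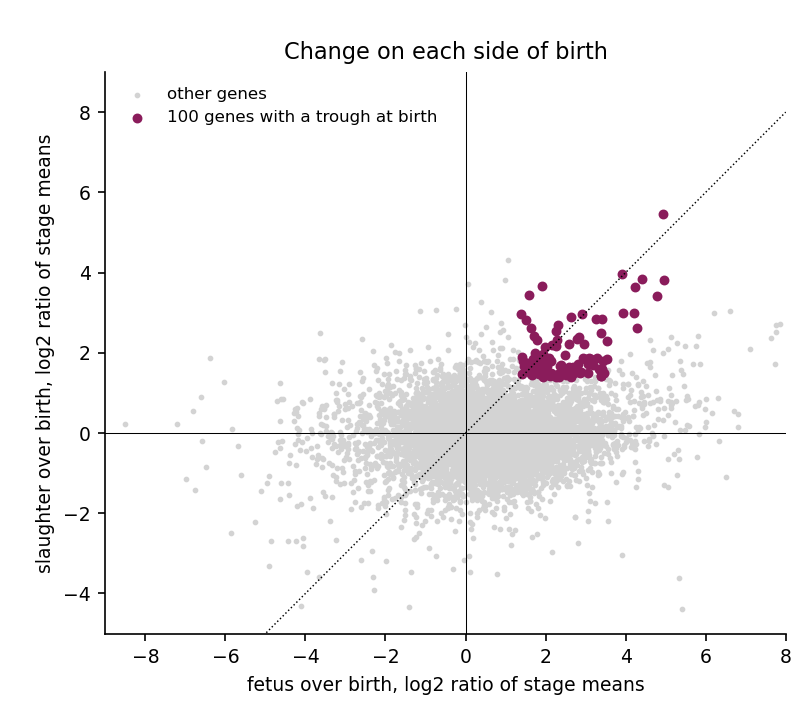
Log2 ratio of stage means for fetus over birth (horizontal) and slaughter over birth (vertical), each with 0.5 CPM added, for genes with fetal and slaughter means of at least 5 CPM, grey, and the 100 members, purple; the dotted line marks equal ratios. The members fill the upper right corner by construction, and 72 of the 100 lie below the dotted line, where the fetal mean is above the slaughter mean, against 33 with TMM and 31 with RLE scaling.

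The rule left the order of the outer stages free within 4-fold. On the CPM scale, the slaughter mean was lower than the fetal mean for 72 of the 100 genes and higher for 28, whereas with the TMM and RLE scalings only 33 and 31 were lower at slaughter. The median log2 ratio of slaughter to fetus over the 100 genes was -0.54, and over all 5758 identifiers it was -0.43, with 63.7% of them lower at slaughter. Over the identifiers that met the same limits after rescaling it was -0.04 with TMM (6087 identifiers) and -0.04 with RLE (6093 identifiers). Which direction was the more common among the 100 genes thus depends on how libraries are scaled. By CPM 64 of them were within 2-fold between these stages, 31 were over 2-fold lower at slaughter and 5 over 2-fold higher. In edgeR with TMM and Benjamini-Hochberg adjustment, 51 were called higher and 15 lower at slaughter than in fetuses. That is 66 in all, beside a background of 83.4% of 14960 genes, with 5747 called higher and 6737 lower. Since the rule held the fetal and slaughter means within 4-fold, nothing is read from the contrast with the background.

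Individual genes at the ends of this range behaved differently on either side of birth. ENSBTAG00000000146 had 36.3, 52.3 and 82.9 CPM at slaughter (lowest, median, highest), against 135, 205 and 259 CPM in fetuses, with 14.5 to 22.8 CPM at birth. Its slaughter libraries stood clear of both other stages, between them. ENSBTAG00000032089 showed the same order, with 10.8, 14.1 and 29.4 CPM at slaughter, against 36.8, 64.7 and 88.7 CPM in fetuses, and 2.91 to 9.47 CPM at birth. In the opposite direction, ENSBTAG00000008497 had 23.5, 39.3 and 70.7 CPM at slaughter, against 3.70, 11 and 16.9 CPM in fetuses. Its birth libraries, at 1.57 to 7.81 CPM, overlapped with the fetal ones but not with those of slaughter. ENSBTAG00000025136 was abundant throughout, with 322, 487 and 648 CPM at slaughter, against 78.6, 140 and 202 CPM in fetuses, and 17.2 to 86.3 CPM at birth. Its highest birth library lay above its lowest fetal library, and slaughter stood apart from both.

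Averaged over the 100 genes as log2(CPM + 0.5), libraries of a stage were close to each other. The mean was 5.14 ± 0.18 in fetuses (SD, n = 16), 2.64 ± 0.15 at birth (SD, n = 16) and 4.68 ± 0.15 at slaughter (SD, n = 15). In fetuses LG averaged 5.09 ± 0.21 and MG 5.19 ± 0.14 (SD, n = 8 each), and without fetus LG 41 the LG mean was 5.16 ± 0.08 (SD, n = 7). At birth LG averaged 2.59 ± 0.06 and MG 2.69 ± 0.20 (SD, n = 8 each). The 8 LG libraries at birth were the most alike of all groups, and the MG libraries reached both lower and higher. At slaughter LG averaged 4.65 ± 0.16 (SD, n = 8) and MG 4.70 ± 0.14 (SD, n = 7). LG lay below MG at each stage by less than the SD of MG, with overlapping libraries.

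**Figure D3:**
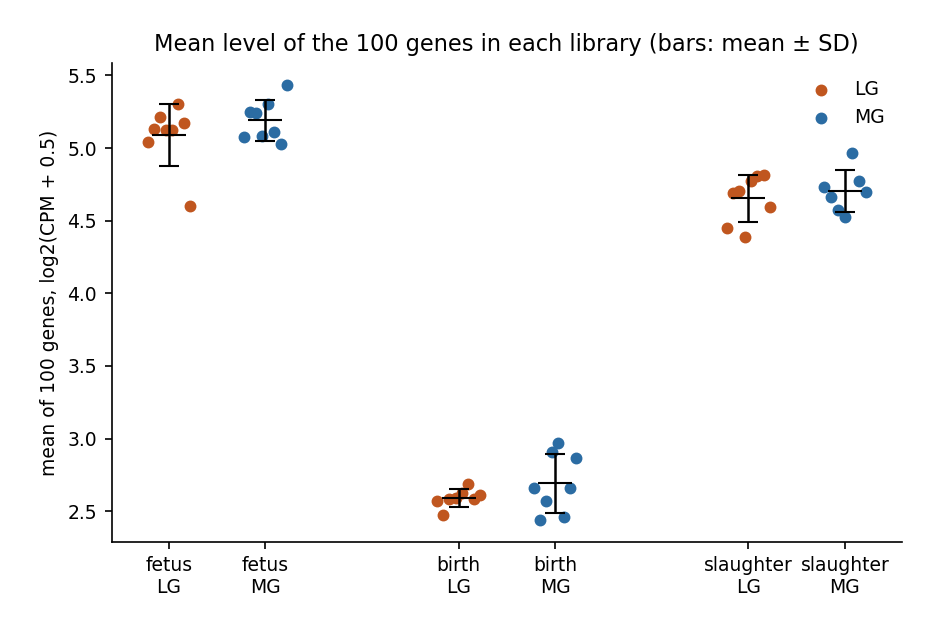
Mean of log2(CPM + 0.5) over the 100 genes in each library, LG in orange to the left of MG in blue at each stage, with black bars for the group mean ± SD (8 libraries a group, 7 for MG at slaughter). All birth libraries lie between 2.44 and 2.97, and all others at 4.39 or above; LG and MG overlap at each stage.

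Birth MG 17 held the highest birth value for 28 of the 100 genes, MG 20 for 27 and MG 37 for 10. Thus 65 genes peaked in 1 of these 3 libraries and 35 in the other 13. The share of other genes highest or lowest in a library was not computed, so nothing is read from such counts here. In MG 17, MG 20 and MG 37, 74, 74 and 73 members lay above the median of the other birth libraries. Of the comparison genes (fetal and slaughter means of at least 5 CPM), 80.98%, 51.78% and 31.95% did so. In MG 20 the genes' median log2 difference from the other birth libraries was 0.32, beside 0.01 over the comparison genes. In MG 37 it was 0.22, beside -0.12. In MG 17 the difference over the comparison genes was as large as that of the members. Fetus LG 41 held the lowest fetal value for 35 genes and the highest for 12, and fetus MG 20 held the lowest for 24 and the highest for 22. At slaughter, LG 14 held the lowest value for 30 genes, with a median difference of -0.31 beside -0.03 over the comparison genes.

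The 100 genes also varied more between libraries of a group than other genes of like level, most plainly after birth. At slaughter the median SD of log2 values was 0.35 for the 50 members between 10.7 and 54.5 CPM, and 0.23 for the 4158 genes of that range. At birth it was 0.42 for the 27 members between 7.63 and 22.5 CPM, and 0.31 for 3002 genes. In fetuses the gap was smaller, 0.48 for 50 members between 16.5 and 74.8 CPM and 0.42 for 4449 genes. These are descriptions, since the genes share libraries. Members with a stage mean of at least 5 CPM did not move as 1 block within a stage. They were all 100 in fetuses and at slaughter, but only 53 at birth. The median correlation between pairs of them over libraries was 0.08 in fetuses, 0.15 in newborns and 0.10 at slaughter. Over pairs of all genes at that level it was 0.04 in fetuses (10306 genes), 0.18 in newborns (8336 genes) and 0.06 at slaughter (8326 genes).

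A pair of genes was nearly absent from some libraries and well counted in others, and the division of 5 counts used to describe them was chosen after their values were seen. ENSBTAG00000012710 had 19.8 to 44.6 CPM in 5 of the 16 fetal libraries and at most 4 counts in the other 11. At birth it had 0.403 to 3.57 CPM in 8 libraries and at most 1 count in the other 8. At slaughter it had 10.1 to 21.3 CPM in 8 libraries and a count of 0 in the other 7. Libraries with and without the transcript occurred in both LG and MG at each stage. The trough of this gene is thus one of level among the libraries that had it: those at birth lay below those of both other stages.

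The presence of ENSBTAG00000012710 could also be set against library numbers. Slaughter and birth share 6 numbers, of which 4 had the transcript at both and 2 had it at neither. For number 20 the level was 12.9 CPM at slaughter and 3.57 CPM at birth. It was 16.4 CPM at slaughter and 1.67 CPM at birth for number 31, 15.9 CPM at slaughter and 1.22 CPM at birth for number 11, and 10.1 CPM at slaughter and 0.84 CPM at birth for number 22. Numbers 07 and 14 were at or near 0 at both stages. Between slaughter and fetal libraries, 15 numbers were shared, of which 5 had the transcript at both stages, 7 at neither and 3 at 1 stage alone. Birth and fetus share 7 numbers, of which 2 had it at both stages, 2 at neither and 3 at 1 stage alone. Whether a number marks the same heifer, or a fetus of that heifer, is not stated in the labels, and no test was made because the gene was picked after seeing its values.

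ENSBTAG00000016063 was counted in all 16 fetal libraries, at 1.29 to 16.7 CPM. At birth 3 libraries, LG 10, LG 28 and MG 31, had 7.40 to 12.4 CPM and the other 13 had at most 4 counts. At slaughter 7 libraries had 15.0 to 23.6 CPM and the other 8 had at most 5 counts. The 3 birth libraries that had the transcript were within the fetal range, and below all 7 such libraries at slaughter. Among the 6 numbers shared by slaughter and birth, number 31 had it at both, with 16.0 CPM at slaughter and 12.4 CPM at birth, and the other 5 had it at neither. Between birth and fetus, its log2 fold change was -1.15 (SE 0.74) with an adjusted p of 0.149 by edgeR with Benjamini-Hochberg adjustment.

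**Figure D4:**
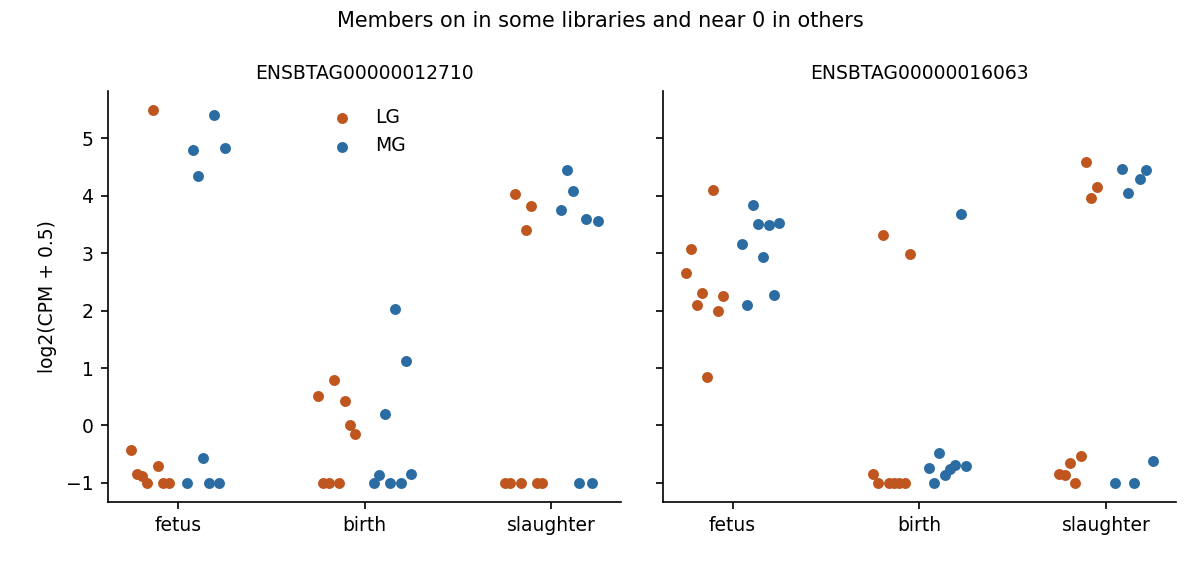
Level of ENSBTAG00000012710 and ENSBTAG00000016063 in each library as log2(CPM + 0.5), LG in orange left of MG in blue; a count of 0 sits at the bottom of the axis. ENSBTAG00000012710 had more than 5 counts in 5 of 16 fetal, 8 of 16 birth and 8 of 15 slaughter libraries. Those at birth were low, at 0.403 to 3.57 CPM. ENSBTAG00000016063 had libraries with at most 5 counts only at birth and slaughter.

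The values can also be set side by side for library numbers that recur between stages, although the labels do not say what a number marks. The differences from birth are again fixed largely by the rule, which used these libraries, and nothing is read from them. Across the 6 numbers shared by slaughter and birth, 98 to 100 of the 100 genes were higher at slaughter, with a median log2 difference of 1.52 to 2.03. Compared with the fetal library of the same number, birth libraries were lower for 95 to 100 genes over 7 numbers. For these numbers the fetal library exceeded the birth library by a median log2 difference of 2.22 to 2.54. Between slaughter and fetus 22 to 45 genes were higher at slaughter over 15 numbers on the CPM scale, on which the order of these stages differs from that under TMM and RLE as given above.

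The treatment of the F0 dams was not used to choose the genes, so LG and MG could be tested at each stage. No member and no other gene passed an adjusted p under 0.05 between LG and MG at any stage (edgeR's quasi-likelihood test, Benjamini-Hochberg adjustment over all genes tested; the background was 0% at each stage). DESeq2 and limma voom likewise called 0 genes at each stage. The labels do not state that each library came from a separate animal, so the p-values here cover library-to-library spread, which may be technical.

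In fetuses 99 of the 100 genes passed the filter on low counts. At an unadjusted p under 0.05, 1 member stood out, 1.01% of those tested, against a background of 0.718% of 14200 genes. Leaving out 1 library at a time gave 0 to 5 members, the most without fetus MG 45. The median log2 fold change of LG over MG was -0.07 over members and -0.04 over all genes, and single members lay between -0.78 and 0.36. For 86 members, 86.9% of those tested, the 95% interval of the fold change lay within 2-fold in either direction, beside 66% of all genes. ENSBTAG00000017155 had the smallest p, with 16.0, 20.0 and 25.2 CPM in LG fetuses (lowest, median, highest) and 21.2, 25.5 and 32.5 CPM in MG fetuses. All 8 LG libraries lay below the MG median, but the groups overlapped. Its log2 fold change was -0.32 (SE 0.15, unadjusted p = 0.0493, edgeR), and its adjusted p was 1.00.

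At birth 95 members were tested. The 5 that did not pass the filter on low counts included ENSBTAG00000010981, the gene with the deepest trough, and also ENSBTAG00000012710 and ENSBTAG00000016063. ENSBTAG00000010981 averaged 0.279 CPM in LG and 0.587 CPM in MG newborns, a difference that was not tested. Of the members tested, 9, or 9.47%, had an unadjusted p under 0.05, against a background of 4.12% of 12485 genes. Of the 9, 7 had a negative log2 fold change of LG over MG and 2 a positive one. This share rested partly on single libraries: without birth LG 10 it was 5 members, and over all 16 such omissions it ran from 5 to 12. The median log2 fold change was -0.09 over members and -0.01 over all genes, with single members between -1.25 and 0.58, and 63 of the 95 were negative, against 51.7% of all genes. For 81 members, 85.3%, the 95% interval lay within 2-fold, a smaller share than the 90.3% of all genes. Without birth MG 17, MG 20 or MG 37, each left out in turn, the count at p under 0.05 was 7.

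ENSBTAG00000004337 had the smallest p of all members at birth. It had 3.66, 4.86 and 5.37 CPM in LG newborns (lowest, median, highest) and 2.45, 2.90 and 4.48 CPM in MG newborns, with all 8 LG libraries above the MG median. The groups overlapped at their edges. Its log2 fold change was 0.58 (SE 0.17, unadjusted p = 0.00374, adjusted p = 0.985, edgeR). ENSBTAG00000017765 had 15.2, 25.7 and 36.7 CPM in LG newborns, against 18.2, 36.4 and 65.8 CPM in MG newborns. It lay below the MG median in 7 of 8 LG libraries, and its log2 fold change was -0.61 (SE 0.21, unadjusted p = 0.0103, adjusted p = 0.985, edgeR). ENSBTAG00000005574 had 17.2, 23.4 and 30.9 CPM in LG and 23.6, 27.4 and 38.1 CPM in MG, again below the MG median in 7 of 8 LG libraries, with a log2 fold change of -0.29 (SE 0.11, edgeR). None of these passed the adjustment.

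At slaughter all 100 genes were tested, and 1 had an unadjusted p under 0.05, against a background of 1.83% of 12577 genes. With 1 library left out at a time it was 1 to 4, the most without slaughter LG 11. The median log2 fold change was 0.01 over members and 0.00 over all genes, with single members between -1.05 and 0.67. For 89 of the 100 members the 95% interval lay within 2-fold, beside 89.5% of all genes. The 1 gene was ENSBTAG00000021706, with 14.9, 23.7 and 38.4 CPM in LG (lowest, median, highest) and 8.18, 17.04 and 25.2 CPM in MG. It lay above the MG median in 7 of 8 LG libraries, with overlap, and its log2 fold change was 0.58 (SE 0.23, unadjusted p = 0.0234, adjusted p = 1.00, edgeR). The same gene was among those with an unadjusted p under 0.05 at birth, where it had 4.28, 6.44 and 7.52 CPM in LG newborns and 2.84, 4.52 and 7.87 CPM in MG newborns. There it lay above the MG median in 6 of 8 LG libraries, with a log2 fold change of 0.38 (SE 0.16, unadjusted p = 0.0322, adjusted p = 0.985, edgeR).

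**Figure D5:**
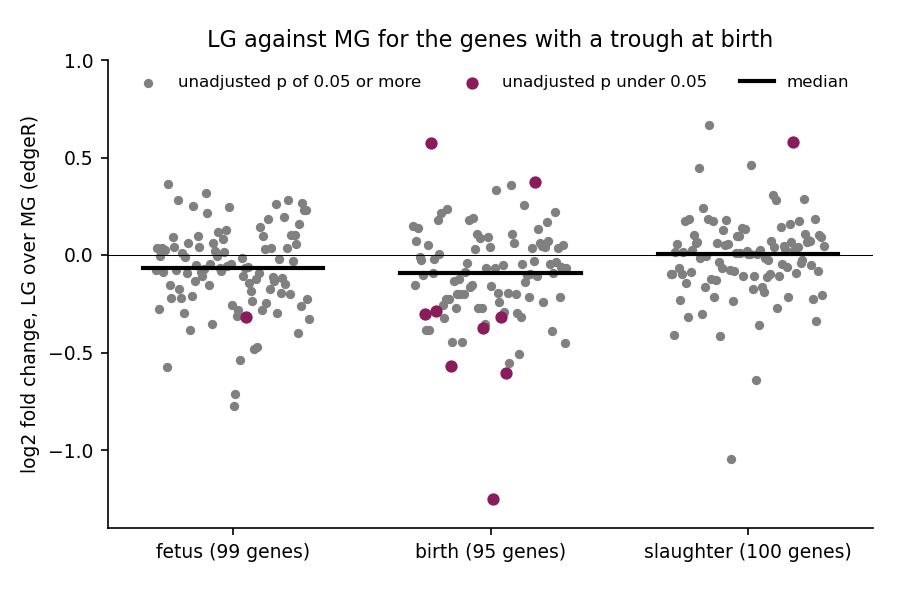
Log2 fold change of LG over MG (edgeR) for each of the 99, 95 and 100 members tested in fetuses, newborns and slaughter heifers, with purple points for an unadjusted p under 0.05 and a black line for the median. The medians are -0.07, -0.09 and 0.01, purple points number 1, 9 and 1, and none passed adjustment over all genes.

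Whether the trough itself was deeper in LG was tested as 1 contrast over the 47 libraries, birth minus the mean of fetus and slaughter in LG, less the same in MG, so that a negative value is a deeper trough in LG. This contrast was added after the data had been seen. None of the 100 members and none of the 15264 genes passed an adjusted p under 0.05 (edgeR, Benjamini-Hochberg), and DESeq2 called 1 gene that is no member. At an unadjusted p under 0.05 there were 3 members, all negative, against a background of 3.09%, and 0 members without birth MG 17, fetus MG 20 and fetus LG 41. The median was -0.09 over members and 0.01 over all genes. For 72 of the 100 members the 95% interval lay within 2-fold, beside 60.1% of all genes. ENSBTAG00000017765 had a value of -0.51 (SE 0.22, unadjusted p = 0.0232, edgeR) and ENSBTAG00000006910 one of -0.36 (SE 0.16, unadjusted p = 0.0244, edgeR). The most positive in terms of p was ENSBTAG00000004337, at 0.50 (SE 0.30, unadjusted p = 0.108, edgeR).

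The size of difference that could have been seen limits these results. In simulated data with 200 genes changed, the test recovered 38.8% of the 67 genes set to a 2-fold difference between LG and MG in fetuses, 79.1% in newborns and 70.2% at slaughter, among 14200, 12485 and 12577 genes. For the trough depth it recovered 46.3% of 67, among 15264 genes. How far these shares hold for the 100 members, with their lower level at birth, was not tested. In edgeR the median SE was 0.23 over members and 0.28 over all genes in fetuses, and 0.21 and 0.16 in newborns. It was 0.19 and 0.17 at slaughter, and 0.29 and 0.32 for trough depth.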

How the data were processed

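The 47 Longissimus samples were made into polyA-selected libraries with a kit that does not mark strand, and read as 150 bp pairs, per the labels. Counts came as the authors deposited them: unnormalized whole numbers per gene, with 1 table for each stage. The submitters' processing notes name STAR 2.7.3a, FastQC 0.11.8, MultiQC 1.9 and edgeR 3.24.3. Which genome build, annotation and counter were used is not given in the sources used here. Without strand, reads from a gene and an overlapping one on the other strand cannot be separated. In the slaughter table no name stands above the identifiers, and its names were read as heading the columns of values in order.

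CPM was computed from the deposited totals. Tests used R 4.3.3 and edgeR 4.0.16 (filterByExpr, TMM, robust quasi-likelihood test, Benjamini-Hochberg adjustment at 0.05 over all genes tested). The SE given with edgeR, also used for the intervals, was the absolute log2 fold change divided by the square root of the test's F statistic. The LG and MG groups were compared inside each stage, and stages through the average of their LG and MG groups. Alternatives were DESeq2 1.42.0, limma 3.58.1 voom, RLE factors, no filter and left-out libraries. Simulated data with known changes were used to check the edgeR tests. Over 161 pairs of libraries of a group, chi-square per degree of freedom was at least 23.2, so none was merged. The members and lists were chosen with earlier results of these data known. The planned gene lists, marker genes and naming rule needed symbols and were not run. Instead the identifiers with the highest score, the largest ratio between the outer stages and the smallest p are named, at most 2 per direction and comparison.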

Additional observations from a re-analysis of the deposited data

Results flagged for a closer look

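In 36 groups of 7 or 8 libraries examined for a single value far from the rest, 3 stood out, and chance alone flags about 1 group in 20. The mean over the 100 genes was 4.60 as log2(CPM + 0.5) in fetus LG 41, against 5.04 to 5.30 in the other 7 LG fetuses. ENSBTAG00000003519 had 253 CPM in fetus LG 41, against 94.2 to 152 CPM in the other LG fetuses. Thus ENSBTAG00000003519 was high in the library where the set as a whole was low, as 1 of 12 members with their highest fetal value there. The same gene had 195 CPM in fetus MG 45, against 79.6 to 123 CPM in the other MG fetuses.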

How the results depend on the processing

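Membership depended on the scaling. Of the 100 genes, 60 were chosen again with TMM-scaled and 61 with RLE-scaled CPM. The median log2 ratio of birth to fetus over the genes that met the level limits under each scaling was -0.36 by CPM, 0.06 with TMM and 0.02 with RLE. Stage medians, LG or MG alone, other level limits, other pseudocounts, and omission of birth MG 17, fetus MG 20 and fetus LG 41 kept 72 to 96. No member was called between LG and MG at any stage under any alternative run or with any 1 library left out, nor for trough depth under its 6 alternatives, among which single libraries were not left out in turn; for trough depth DESeq2 called 1 gene that is no member. In fetuses, ENSBTAG00000003519 had a log2 fold change of LG over MG of 0.36, and of -0.011 without fetus MG 20 and fetus LG 41. Without LG 41 alone, its highest LG library, it was 0.05, and without MG 20 alone 0.29; none of these values passed the test. At unadjusted p under 0.05, alternatives gave 0 to 5 members in fetuses, 6 to 10 at birth, 1 at slaughter and 0 to 4 for trough depth.

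Library numbers were checked as pairs. The deviations of same-numbered libraries had correlations on both sides of 0, from -0.46 to 0.20 between birth and fetus. They ran from -0.03 to 0.36 between slaughter and birth and from -0.49 to 0.51 between slaughter and fetus. The labels do not say what a number marks, so same-numbered libraries were not taken as pairs. With the number as a replicate block, 9702 genes were called between birth and fetus, 6796 between slaughter and birth and 11520 between slaughter and fetus, against 9667, 6723 and 11478 in the same libraries without the block. Depth of low genes limits what can be seen: 5 members did not pass the filter for LG against MG at birth.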
